A study of Arabidopsis thaliana with 3 samples.

Results

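The young miRNAs described here were 55 names in 42 families, of 328 names listed in the Col library. They were chosen by number and name ending alone. Names of families miR771 to miR870 were taken, except those of miR778, miR822, miR827, miR828, miR838, miR839, miR857 and miR869. Names ending in *, -3p or -5p were left out as well, and both steps together removed 38 names of that range. Families listed only under -3p and -5p names, such as miR851 and miR863, are thus absent. Among the names left out, miR863-3p had 798 reads in cdf2, 4 in dcl1-9 and 707 in Col, more than miR848 described below. Small RNAs from 22-day-old Arabidopsis seedlings of the cdf2 mutant, the dcl1-9 mutant and the wild type Col, all labelled as the Col ecotype and grown in soil under 16 h light and 8 h dark, had been sequenced in 3 libraries, 1 per genotype. The cdf2 plants are mutant for CDF2, a DOF-type transcription factor that the study examined as a partner of DCL1. The dcl1-9 plants make a DCL1 protein that lacks the C-terminal domains binding double-stranded RNA, so that the enzyme is impaired and not absent. With 1 library per genotype, no difference between genotypes has a replicate check. The p-values and 95% intervals below compare libraries and cover the counting error of reads only. No molecular identifiers are described, so repeated copies of 1 molecule could not be told from separate molecules.

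Plant miRNAs are cut from folded transcripts by DCL1 in nuclear dicing bodies and are loaded into ARGONAUTE proteins, where they pair with mRNAs almost along their whole length. A small core of families is shared by most land plants and is abundant. Many other families arose within the Arabidopsis lineage, often as inverted copies of the genes they now pair with, and these young miRNAs come mostly from single loci, are weakly expressed and often lack a known target. The question asked of both mutants was how far such weakly expressed miRNAs depend on DCL1 and on CDF2.

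Mature sequences of 38 of the 55 names were found in the RefSeq annotation of the TAIR10.1 assembly, and the 17 others are named only. The sequences below are those of the 4 most abundant young miRNAs and of those on which the comparison of cdf2 with Col turned. They are written 5′ to 3′ with the seed, bases 2 to 8, in capitals.
miR780.1: uCUAGCAGcuguugagcaggu
miR780.2: uUCUUCGUgaauaucuggcau
miR775: uUCGAUGUcuagcagugcca
miR848: uGACAUGGgacugccuaagcua
miR771: uGAGCCUCugugguagcccuca
miR841b: uACGAGCCacuggaaacugaa
miR849: uAACUAAAcauugguguagua
miR854a: gAUGAGGAuagggaggaggag
miR823: uGGGUGGUgaucauauaagau
miR843: uUUAGGUCgagcuucauugga

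miR780.1 (chr4:8504166-8504186, minus strand) and miR780.2 (chr4:8504145-8504165, minus strand) lie end to end with 0 bases between them in 1 precursor, which runs opposite to an exon of the uncharacterized gene AT4G14810. miR775 (chr1:29422546-29422565, plus strand) and miR849 (chr3:16072500-16072520, minus strand) are shown for the most abundant miRNA that had 0 reads in dcl1-9 and for the only tested one that had 0 reads in cdf2. miR848 (chr5:4479448-4479469, minus strand) lies in an intron of AT5G13890 on the same strand. miR771 is at chr3:19659381-19659402 on the minus strand and miR841b at chr4:2184325-2184345 on the plus strand. miR823 is at chr3:4496826-4496846 on the minus strand and miR843 at chr3:17742147-17742167 on the plus strand. miR854a (chr5:11847721-11847741, plus strand) has the same mature sequence as miR854b, miR854c, miR854d and miR854e. The starts of these 5 loci span 617901 bases of chromosome 5, and each mature sequence lies in an exon of an annotated pseudogene on the same strand.

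The 38 located names carry 34 distinct sequences, of which 24 are 21 nt long, 8 are 22 nt, 1 is 20 nt (miR775) and 1 is 24 nt. The first base was U in 29 of the 34 (85.3%), against 101 of the 170 distinct sequences among the other located miRNAs (59.4%). The other set keeps names ending in *, -3p or -5p, which the rule took out of the young miRNAs. These shares are thus of unlike sets, and the difference cannot be read as a trait of the young miRNAs. Seeds were hardly shared. Among the young miRNAs only miR854a to miR854e had a seed in common, and miR833b had that of miR833-5p. Of the 38 precursors, 21 overlapped no annotated gene with an mRNA, and genes without an mRNA were not compared. In 3 cases, miR848, miR852 and miR853, the mature sequence lay in an intron on the same strand, and in 4 cases, miR777, miR782, miR834 and miR860, in an exon of a protein-coding gene on the same strand. The exon that holds miR860 is in the 3′ UTR of FC1, a ferrochelatase of haem synthesis. For these 4 and for miR854, a read of the mature miRNA and a fragment of the host transcript with the same letters cannot be told apart.

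The sites that pair best with the young miRNAs were sought in the longest transcript of 31346 annotated genes, with a score of 1 for each unpaired base and 0.5 for each G:U pair, so that a score of 0 is full pairing. The sites of miR823, miR841b and miR843 are printed because they fall in a chromomethylase gene, a histone H2A gene and an F-box gene. Paired bases are in capitals and unpaired bases in lower case.
CMT3 site of miR823: GUCUUAUAUGAUCAUCACCCu
HTA8 site of miR841b: UUCAGUUUCCAGUGGgUCGUA
AT3G13830 site of miR843: UUCAAUGAAGCUCGACCUAAA

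CMT3 encodes the chromomethylase that methylates cytosines in CHG context, and its site (chr1:26249567-26249587, minus strand, coding) scored 2. HTA8 encodes a histone H2A.Z protein, and its site scored 1 and spans an intron between positions 16219725 and 16220570 of chromosome 2. AT3G13830 encodes an F-box protein, and its site (chr3:4554152-4554172, plus strand, coding) scored 0.5. Of the 34 distinct sequences, 12 had a best site scoring 1.5 or less, and 5 had none scoring 3 or less. The 5 included miR771 (3.5), miR848 (4) and miR850 (3.5). For miR780.1 and miR780.2, among these 12, the score of 0 was met only in AT4G14810, the gene on the other strand of their own locus. The best site of miR860, in FC1 with a score of 0.5, lies within its own precursor. The best sites of miR855, with a score of 0, lie in annotated pseudogenes. Such a match describes letters in these transcripts, and no mRNA was measured in these libraries.

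The young miRNAs were rare in every library. Their reads added up to 8287 in cdf2, 92 in dcl1-9 and 8807 in Col. The same reads stand in each of the 5 names of miR854, and with miR854 counted once the sums were 7843, 76 and 8579. Levels are given as RPM, reads scaled by the total reads of each library. A single read is worth 0.0810 RPM in cdf2, 0.0764 in dcl1-9 and 0.0870 in Col. Of the 55 names, 44 had reads in cdf2 and 49 in Col. The dcl1-9 library uses partly later names, under which 48 could be joined, 3 of them through a later name, and 21 of the 48 had reads. The 7 that were not joined (miR773b, miR774, miR774b, miR781, miR830, miR844 and miR858) had at most 9 reads in Col, and the 11 rows of their families under later names held 0 reads in dcl1-9. The median young miRNA had 8 reads in cdf2, 0 in dcl1-9 and 14 in Col, and the median of the other miRNAs was 33, 0 and 32.

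The spread among the young miRNAs was wide. In Col, 6 had 0 reads, 18 had 1 to 9, 18 had from 10 to under 100, 10 had from 100 to under 1000 and 3 had 1000 or more. In cdf2 these classes held 11, 17, 11, 13 and 3. A count of 0 allows up to 0.243 RPM in cdf2, 0.229 in dcl1-9 and 0.261 in Col. The names miR773b, miR774b, miR779.1, miR782 and miR836 had 0 reads wherever they could be read, so their level was under detection at this depth. miR853, with 2 reads in cdf2 and 0 in dcl1-9 and Col, was the only name with reads in cdf2 and not in Col.

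**Figure D1:**
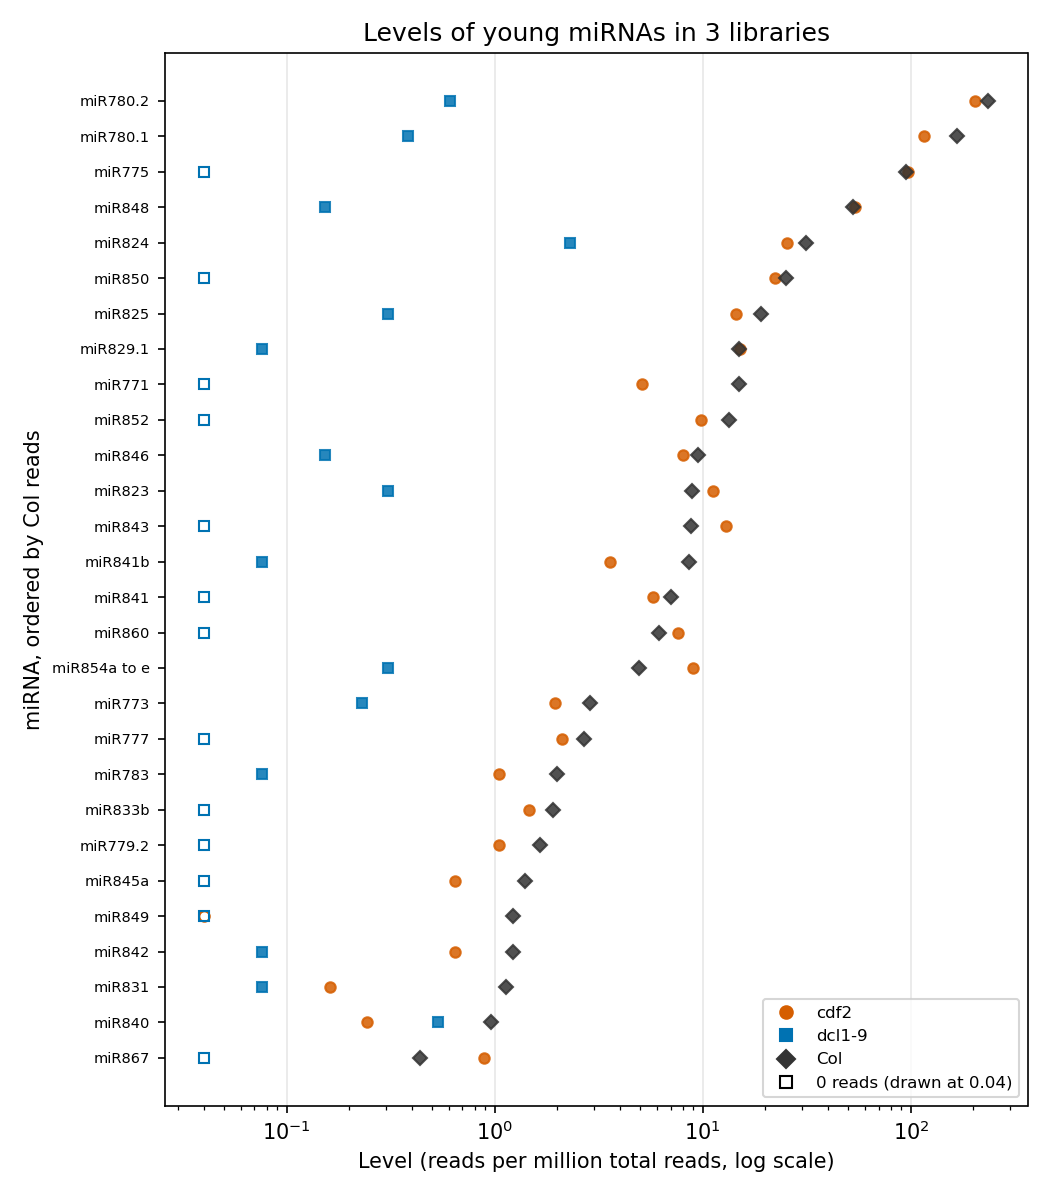
Levels of the young miRNAs with at least 10 reads in cdf2 or in Col, in RPM on a log axis, with 1 point for each of the cdf2, dcl1-9 and Col libraries and open symbols for 0 reads (miR854a to miR854e drawn once, and miR849 at 0 in both cdf2 and dcl1-9). The cdf2 and Col points lie close together for the abundant miRNAs at the top, where miR780.2 has 204 RPM in cdf2 and 236 in Col, and the dcl1-9 points of most miRNAs lie far to the left.

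Few of them made up most of the reads. miR780.2, miR780.1, miR775 and miR848 held 6322 reads, or 71.8% of the reads of all young miRNAs in Col. miR780 was described with CHX18, a cation exchanger, as its target. miR780.2 had 2515 reads in cdf2, 8 in dcl1-9 and 2708 in Col, that is 204, 0.612 and 236 RPM, and ranked 42 in Col among all listed miRNAs. miR780.1 had 1427, 5 and 1918 reads in the same libraries and ranked 46. miR775, whose best pairing site lies in the galactosyltransferase gene AT1G53290, had 1197 reads in cdf2, 0 in dcl1-9 and 1087 in Col. miR848, the last of the 4, had 669, 2 and 609. In cdf2 and in Col these 4 kept the same order, and the 95% counting intervals of neighbours in that order did not overlap.

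Below them, miR824, which targets the MADS-box gene AGL16 in stomatal development, had 314 reads in cdf2, 30 in dcl1-9 and 361 in Col. miR850 had 276, 0 and 288 reads and miR825 had 178, 4 and 219. miR829.1 had 187, 1 and 172 reads, and its neighbour miR829.2 had 0 in cdf2, 0 in dcl1-9 and 1 in Col. miR852 had 121, 0 and 154 reads, miR846 had 99, 2 and 109, and miR860 had 94, 0 and 71. miR777 had 26, 0 and 31 reads and miR833b had 18, 0 and 22. In cdf2 and in Col the intervals of many neighbours in this order overlapped, and miR771 and miR829.1 had the same 172 reads in Col.

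The first comparison was that of cdf2 with Col. The young miRNAs together were close in both libraries, with a summed level of 671 RPM in cdf2 and 767 RPM in Col, a fold of 0.875 (0.849 to 0.902). The other 273 miRNAs had 424338 RPM in cdf2 and 768061 RPM in Col, a fold of 0.552. Many reads of these other miRNAs stand in several names of a family, and with only the most abundant name of each family their fold was 0.565. With miR854 counted once, the fold of the young miRNAs was 0.851 (0.825 to 0.877). The ratio of the folds of young and other miRNAs, which does not depend on the total used, was 1.58 over all names. It was 1.51 with miR854 counted once and the others cut to 1 name per family, which are unlike reductions. With 1 name per family for the young miRNAs too, their fold was 0.898 (0.867 to 0.929), beside 0.565 for the others. miR780.1 and miR780.2 together had 3942 reads in cdf2 and 4626 in Col, a fold of 0.793 (0.760 to 0.827). The 53 other names had 4345 reads in cdf2 and 4181 in Col, a fold of 0.967 (0.926 to 1.01). With miR854 counted once these were 3901 reads in cdf2 and 3953 in Col, a fold of 0.918 (0.878 to 0.960) whose interval lies under 1.

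Name by name, 38 of the 55 had at least 10 reads in cdf2 and Col together, and 17 did not pass this filter. Of the 38, 11 were lower in cdf2 by at least 1.5-fold, 6 were higher by that much and 21 lay within 1.5-fold. The same count over all 230 miRNAs tested gave 37% lower and 15.2% higher, beside 28.9% and 15.8% of the young miRNAs. The median log2 fold change was -0.34 over the 38 and -0.40 over all 230. With a two-sided Fisher's exact test on the reads, adjusted by the Benjamini-Hochberg method over all 230, 4 of the 38 passed as lower and 5 as higher by at least 1.5-fold. These were 10.5% and 13.2% of the 38, and over all 230 the shares were 27.8% and 8.26%. The test passes fewer names at low counts, and the 5 higher names are the single sequence of miR854.

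The count of names depends on the scale, because a scale moves all miRNAs of a library by 1 factor. Relative to total reads, setting each library to its sum of miRNA reads shifted every log2 value for cdf2 by 0.86 and gave 4 lower and 16 higher names in place of 11 and 6. The size factors of DESeq2 (shift 0.40) gave 7 and 10. TMM (shift 0.25) and the deposited totals (shift 0.07) each gave 10 and 7. The genome-matched reads (shift -0.81) gave 28 and 0, but in Col they are fewer than the 2663473 reads of the other miRNAs with 1 name per family, and what they count is not given. The order of the miRNAs is the same under each scale.

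**Figure D2:**
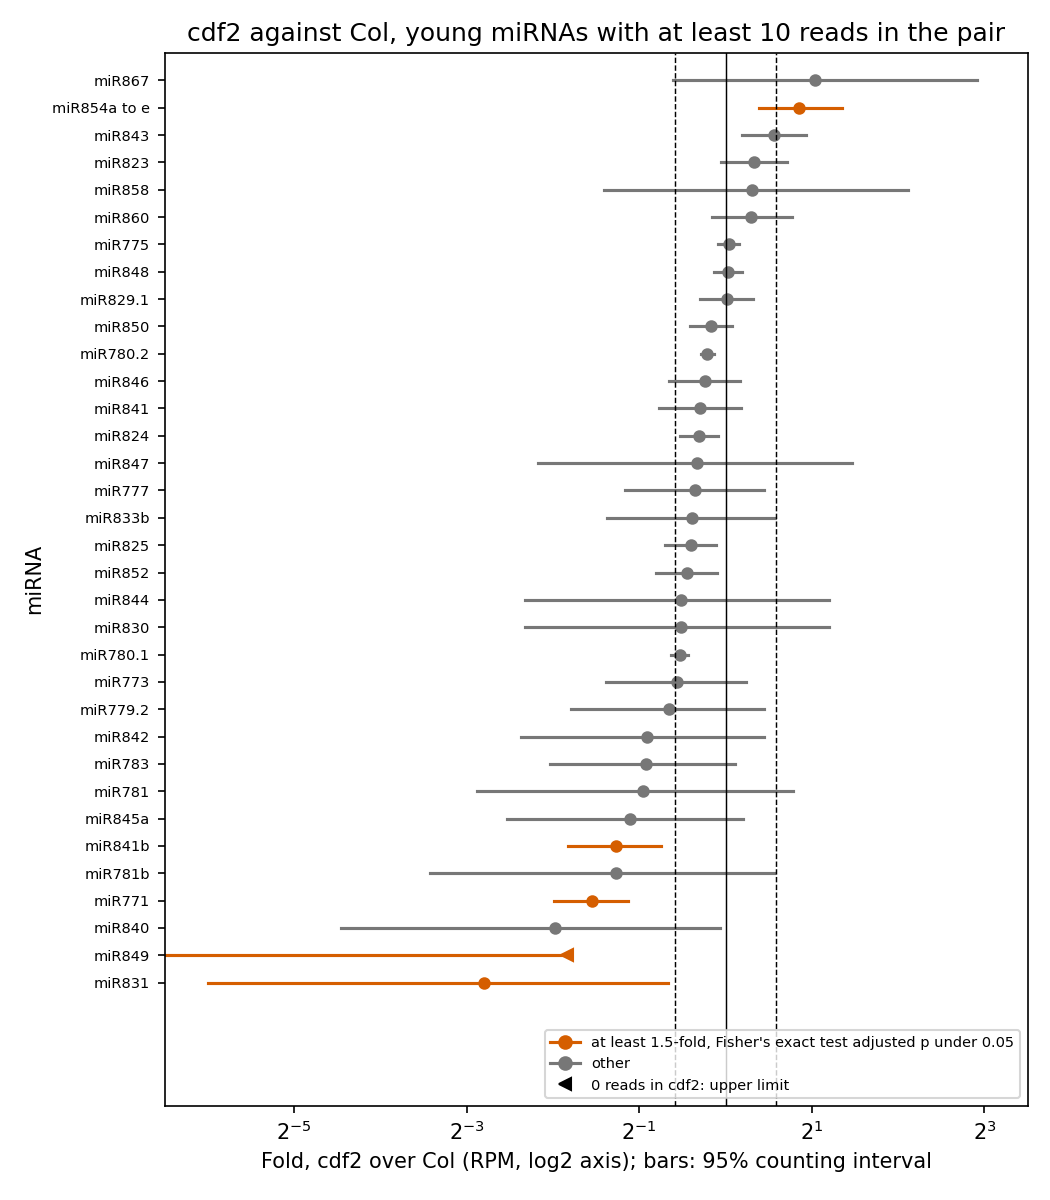
Fold of cdf2 over Col for each young miRNA with at least 10 reads in the pair (log2 axis, RPM), with bars for the 95% counting interval and dashed lines at 1.5-fold in each direction. Orange marks the miRNAs past 1.5-fold and Fisher's exact test, which are miR771, miR831, miR841b and miR849 on the left and the 5 identical miR854 names, drawn once, on the right.

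The young miRNAs lower in cdf2 past the test were miR771, miR831, miR841b and miR849. miR771 had 63 reads in cdf2 and 172 in Col and was 2.93-fold lower in cdf2 (2.19 to 3.98, adjusted p = 4.48e-14, Fisher's exact test). miR841b had 44 reads in cdf2 and 99 in Col and was 2.42-fold lower (1.68 to 3.53, adjusted p = 1.85e-06, Fisher's exact test). Both are of middling abundance, and neither is near the floor in either library. miR849 had 0 reads in cdf2 and 14 in Col, so it was at least 3.57-fold lower in cdf2 (adjusted p = 0.000108, Fisher's exact test). Set to the floor of 3 reads in cdf2, its ratio of Col to cdf2 was 5.02. miR831 had 2 reads in cdf2 and 13 in Col, a ratio of Col to cdf2 of 6.99 with a wide interval of 1.58 to 63.8 (adjusted p = 0.00717, Fisher's exact test). Under the 5 other scales the fold of cdf2 over Col ran from 0.194 to 0.616 for miR771 and from 0.235 to 0.748 for miR841b. With the sum of miRNA reads, miR771 and miR849 still passed both limits, miR831 passed the fold alone, and miR841b passed neither. The lowest folds of each range come from the genome-matched reads. With edgeR's exact test at an assumed coefficient of variation of 0.2 between libraries, miR771 and miR849 passed (adjusted p = 0.0278 and 0.0170), and miR831 and miR841b did not (adjusted p = 0.153 for both). At 0.4 none of these passed (adjusted p from 0.277 to 0.961).

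The other 7 names lower by 1.5-fold had at most 23 reads in Col, and none passed the test. miR783 had 13 reads in cdf2 and 23 in Col, miR779.2 had 13 and 19, miR845a had 8 and 16, and miR842 had 8 and 14. miR840, which was described with the WHIRLY gene WHY3 as its target, had 3 reads in cdf2 and 11 in Col, a fold of 0.254 (0.0455 to 0.961) with an adjusted p of 0.0531 by Fisher's exact test. For counts this low, a difference of 1.5-fold was not detectable at this depth.

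miR854 was the only sequence that passed Fisher's exact test as higher in cdf2. Each of its 5 names had 111 reads in cdf2, 4 in dcl1-9 and 57 in Col, so the same reads were listed 5 times. Its level was 8.99 RPM in cdf2 and 4.96 RPM in Col, 1.81-fold higher in cdf2 (1.30 to 2.54, adjusted p = 0.000545, Fisher's exact test). Counted once, miR854 leaves 2 higher names of 34, the other being miR867 with 11 reads in cdf2 and 5 in Col (fold 2.05, 0.656 to 7.51). Over the other scales the fold of miR854 ran from 1.03 to 3.28, and it did not pass edgeR's exact test at an assumed coefficient of variation of 0.2 (adjusted p = 0.273) or 0.4 (adjusted p = 0.961). miR854 has been reported to act on UBP1b, an RNA-binding protein gene, and 70 genes held a site that scored 3 or less with its purine-rich sequence. miR843 was just under the limit. It had 160 reads in cdf2, 0 in dcl1-9 and 101 in Col, a fold of 1.47 (1.14 to 1.91, adjusted p = 0.00562, Fisher's exact test), and the scales took it between 0.839 and 2.67.

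The abundant young miRNAs changed little in cdf2. miR775 had 96.9 RPM in cdf2 and 94.6 RPM in Col, a fold of 1.02 (0.943 to 1.11). miR848 likewise had a fold of 1.02 (0.914 to 1.14), miR829.1 one of 1.01 (0.818 to 1.25) and miR850 one of 0.892 (0.753 to 1.06). These intervals hold 1 and leave room for no change of 1.5-fold on the scale of total reads. miR780.2 was lower in cdf2 with a fold of 0.864 (0.818 to 0.913, adjusted p = 4.62e-07, Fisher's exact test) and miR780.1 with one of 0.692 (0.646 to 0.742, adjusted p = 1.78e-25, Fisher's exact test), both within 1.5-fold. miR824 had a fold of 0.809 (0.693 to 0.944), miR825 one of 0.756 (0.617 to 0.926) and miR852 one of 0.731 (0.571 to 0.934), and the test passed for these 3 as well, with adjusted p from 0.0122 to 0.0219 by Fisher's exact test. The direction of each miRNA in this paragraph turned under at least 1 other scale, for example between 0.583 and 1.85 for miR775 and between 0.394 and 1.25 for miR780.1.

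A ratio of 2 miRNAs within a library does not depend on the scale. miR780.1 per miR780.2, from 1 precursor, was 0.567 (0.531 to 0.606) in cdf2, 0.625 (0.161 to 2.17) in dcl1-9 and 0.708 (0.668 to 0.751) in Col. The intervals of cdf2 and Col do not overlap, and that of dcl1-9, which rests on 5 and 8 reads, covers both. miR841b per miR841, of 1 family, was 0.620 (0.416 to 0.915) in cdf2 and 1.22 (0.902 to 1.66) in Col, and these intervals overlap narrowly. miR841 had 71 reads in cdf2, 0 in dcl1-9 and 81 in Col. The strand opposite to miR841b had 197 reads in cdf2, 4 in dcl1-9 and 308 in Col. miR841b per opposite strand was 0.223 (0.157 to 0.311) in cdf2 and 0.321 (0.254 to 0.404) in Col, and these intervals overlap.

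The fold in cdf2 was also read against abundance in Col, since the young miRNAs are rarer than the others. From 10 to under 100 reads in Col, the median fold of 18 young miRNAs was 0.718 and that of 68 others 0.774, and with identical counts taken once these were 0.582 over 14 and 0.761 over 61. From 100 to under 1000 reads the medians were 0.868 over 10 young miRNAs and 0.902 over 57 others. From 1000 to under 10000 reads they were 0.864 over 3 young miRNAs and 0.663 over 11 others. From 10000 reads upwards there was no young miRNA, and the median of 36 others was 0.539. The distance between young and other miRNAs in the lowest class thus depended on how often miR854 was counted. The smaller sum of the other miRNAs in cdf2 came with the most abundant names, a class that holds no young miRNA. These medians are descriptions, and miRNAs are not independent replicates.

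**Figure D3:**
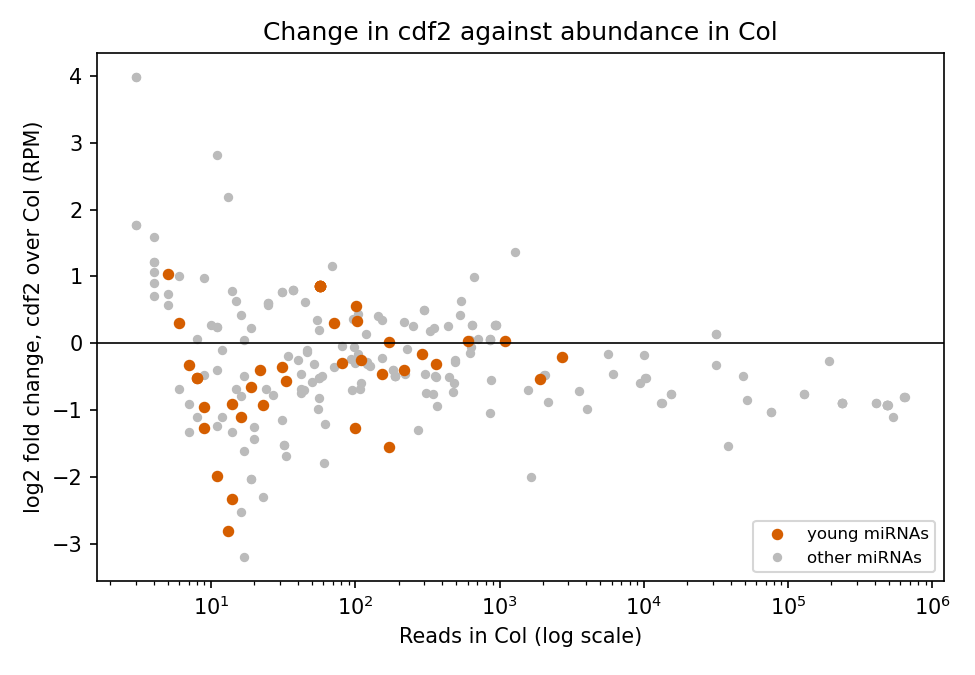
log2 fold change of cdf2 over Col (RPM) against reads in Col (log axis), with the young miRNAs and the other miRNAs in separate colours and 1 point per name with at least 10 reads in the pair and 1 or more in Col, and 0 reads in cdf2 set to the floor of 3. The young miRNAs reach 2708 reads and scatter on both sides of 0 at low counts, and the other miRNAs with 10000 reads or more lie mostly under 0, with a median fold of 0.539.

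The miRNAs with a target role known from earlier work are described by group. These roles were not read from the pairing scan above. Its best site lay in CMT3 for miR823, but in RFNR1 for miR773 and in AT1G74620 for miR847, genes other than the targets named here. For DNA methylation, miR823, which targets CMT3, had 138 reads in cdf2, 4 in dcl1-9 and 102 in Col, a fold in cdf2 of 1.26 (0.967 to 1.64). miR773, which targets a DNA methyltransferase gene of the MET1 class, had 24, 3 and 33 reads, a fold of 0.677 (0.383 to 1.18). Neither of the 2 tested names of this group passed the test in cdf2. The lectin group gave the same count. miR846, which pairs with jacalin-like lectin genes, had a fold of 0.845 (0.637 to 1.12), and miR842 of the same target family one of 0.532, with 21 genes scoring 3 or less for it.

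The 5 names for regulators, miR824, miR834, miR847, miR858 and miR858b, had 335 reads in cdf2 and 380 in Col, nearly all of them of miR824. miR847, which targets the auxin repressor gene IAA28, had 6 reads in cdf2, 1 in dcl1-9 and 7 in Col. miR858 and miR858b, which target MYB genes of flavonoid synthesis, had 8 and 5 reads in cdf2 and 6 and 3 in Col. miR834 had 2 reads in cdf2, 0 in dcl1-9 and 3 in Col. In this group 3 names were tested and 0 passed the test in cdf2.

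The remaining roles fell to rare names. miR845a and miR845b, which pair with retrotransposon sequence and lie 3349 bases apart, had 8 and 3 reads in cdf2, 0 and 0 in dcl1-9, and 16 and 3 in Col. The F-box miRNAs listed, miR774, miR774b and miR859, had 2 reads in cdf2 and 4 in Col between them, and none was tested. miR843, described above, was not on this list, although its best site lies in an F-box gene. miR856 had 2 reads in cdf2, 0 in dcl1-9 and 4 in Col. miR776, whose best site lies in the kinase gene IRE, had 1 read in Col and 0 in cdf2 and dcl1-9. miR826, described with the glucosinolate gene AOP2, had 0 reads in cdf2 and in dcl1-9 and 2 in Col. miR844, described with the phospholipid gene CDS3, had 6 reads in cdf2 and 8 in Col. Over the 30 names with a listed role, 20 were tested in cdf2, and 1 passed Fisher's exact test as lower (miR841b, 5% of the 20, against 27.8% of all 230) and 5 as higher (miR854a to miR854e, a single sequence, 25% of the 20 against 8.26%).

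The comparison of dcl1-9 with Col gave a different picture, and it shares the Col library with the first. The young miRNAs nearly vanished. The 48 joined names had 92 reads in dcl1-9 and 8774 in Col, a sum 109-fold lower in dcl1-9. It was 128-fold lower with miR854 counted once and 105-fold lower with only the most abundant name of each family. For the 258 other joined miRNAs the sum was 26.5-fold lower. It was 26.4-fold lower with identical counts taken once and 37.9-fold lower with only the most abundant name of each family. Of the 48, 27 had 0 reads in dcl1-9, 10 had 1 to 3 and 11 had 4 or more, 5 of which are the names of miR854. Of these 48, 31 had at least 10 reads in the pair. All 31 were lower by at least 1.5-fold in dcl1-9, where the same held for 100% of the 202 miRNAs tested, and 30 passed Fisher's exact test, against 99% of the 202. None was higher, as for the 202 (0%). Only miR824 passed the filter on its dcl1-9 reads alone, so the other 30 had to be present in Col to be counted. The median log2 fold change was -4.71 over the 31 and -4.71 over the 202, with 0 reads set to the floor of 3.

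**Figure D4:**
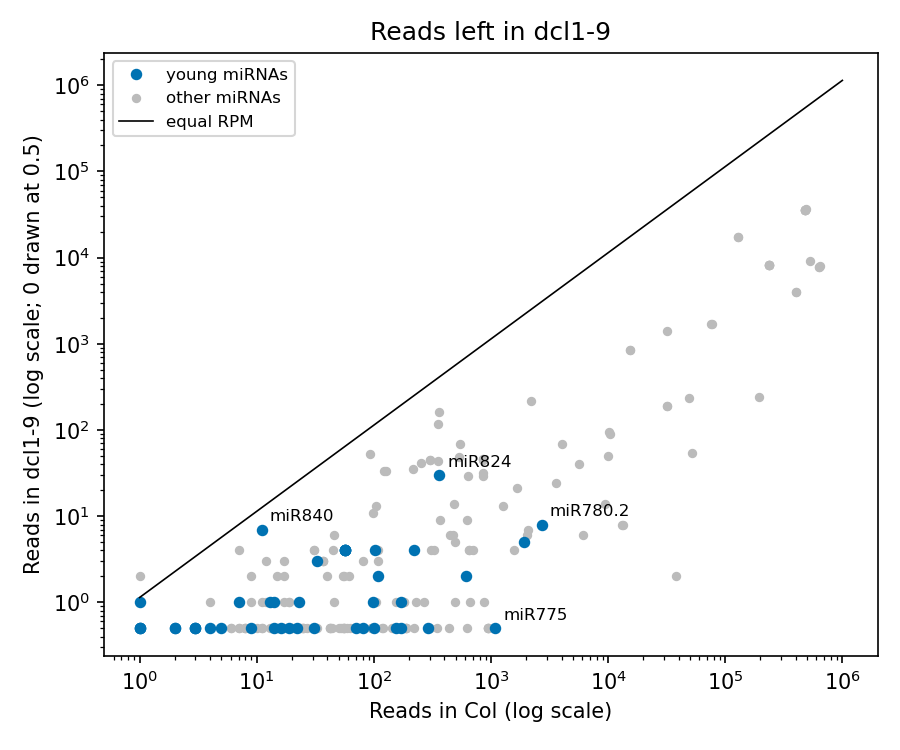
Reads in dcl1-9 against reads in Col (log axes, 0 reads in dcl1-9 drawn at 0.5) for the young miRNAs and the other joined miRNAs, with a line for equal RPM. All young miRNAs with at least 10 reads in the pair lie under the line, miR824 has the most reads left (30), and miR780.1 and miR780.2 keep 5 and 8.

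How deep a loss can be seen is set by the Col count. A name with 0 reads in dcl1-9 has only a bound on its fold, given below as the limit of its counting interval. The highest ratios and bounds seen were those of the abundant names. miR780.1 and miR780.2 together kept 13 reads in dcl1-9 against 4626 in Col, 405-fold lower in dcl1-9. For miR780.1 the ratio of Col to dcl1-9 was 437 (187 to 1347) and for miR780.2 it was 385 (195 to 894). miR775 had 0 reads in dcl1-9 and 1087 in Col, so that it was at least 335-fold lower. miR848 kept 2 reads, a ratio of Col to dcl1-9 of 347 (95.6 to 2869). Without miR780.1 and miR780.2 the young miRNAs had 79 reads in dcl1-9 and 4148 in Col, 59.8-fold lower, and without all 4 abundant names 77 reads in dcl1-9 and 2452 in Col, 36.3-fold lower (41.5-fold with miR854 counted once).

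miR850, miR771, miR852 and miR843, each above 100 reads in Col, were at 0 in dcl1-9. miR850 was at least 88.3-fold lower in dcl1-9, miR771 at least 52.5-fold, miR852 at least 47.0-fold and miR843 at least 30.6-fold. miR829.1 kept 1 read in dcl1-9 against 172 in Col, a ratio of Col to dcl1-9 of 196 (34.7 to 7779), and miR841b kept 1 against 99, a ratio of 113 (19.8 to 4496). These wide intervals overlap those of the abundant names. miR825 kept 4 reads and miR846 kept 2, with ratios of Col to dcl1-9 of 62.3 (24 to 231) and 62.1 (16.8 to 519). Among the names with 0 reads in dcl1-9 and fewer in Col, miR841 was at least 24.4-fold lower, miR860 at least 21.3-fold, miR777 at least 9.01-fold and miR849 at least 3.78-fold.

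Some young miRNAs kept more. miR824 kept 30 reads in dcl1-9 against 361 in Col, 13.7-fold lower in dcl1-9 (9.43 to 20.6, adjusted p = 1.4e-82, Fisher's exact test), and with miR854 counted once it held 39.5% of the 76 reads left. miR773 kept 3 reads, a ratio of Col to dcl1-9 of 12.5 (3.93 to 63.8). miR854 kept 4 reads per name, 16.2-fold lower (6.0 to 61.6), and miR823 kept 4, 29.0-fold lower (11 to 109). miR840 stood apart with 7 reads in dcl1-9, 3 in cdf2 and 11 in Col. It was 1.79-fold lower in dcl1-9 with an interval of 0.633 to 5.44 (adjusted p = 0.246, Fisher's exact test), so a loss was not detectable for it at this depth.

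At like abundance in Col, young miRNAs of 10 to under 100 reads kept 34 reads in dcl1-9 against 732 in Col (4.08% of the level in RPM), and the other miRNAs of this class kept 4.36%. With identical counts taken once, these were 18 reads in dcl1-9 against 504 in Col (3.14%) for the young miRNAs and 4.33% for the others. From 100 to under 1000 reads the young miRNAs kept 1.65% and the others 3.59%. From 1000 to under 10000 reads 3 young miRNAs kept 0.2% and 11 others 0.937%. The highest count of a young miRNA in dcl1-9 was 30 in the middle class, and that of another miRNA there was 161. These shares are of the summed RPM, and single names weigh heavily in each class. In the lowest class the others kept 121 reads in dcl1-9, 53 of them of miR839, which had 93 reads in Col. In the class from 1000 reads they kept 421, 218 of them of miR822. Both names were left out of the young miRNAs by the rule. The lower share of the young miRNAs in the lowest class rests on miR839 and does not hold without it.

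The scale matters for this comparison too. With the genome-matched reads or the deposited totals, 30 of the 31 remained lower by at least 1.5-fold in dcl1-9 and 0 were higher. The other 3 scales, the sum of miRNA reads, the size factors of DESeq2 and TMM, added 4.73, 4.96 and 4.97 to each log2 value, so that each miRNA was set against the other miRNAs of its library. Under each of these 3 scales 11 of the 31 were lower and 15 higher. Of the 15, 5 (miR777, miR779.2, miR833b, miR845a and miR849) had 0 reads in dcl1-9 and were counted as higher only through the floor of 3 reads, which gives an upper limit and no direction. The other 10 are 6 sequences, since 5 of them are miR854. With TMM, miR771, miR775, miR780.1, miR780.2, miR848, miR850 and miR852 were lower past Fisher's exact test, and miR824 (fold 2.28) and miR840 (fold 17.5) were higher past it. TMM is set by miRNAs with reads in both libraries, so these calls are relative to miRNAs that kept reads in dcl1-9. A deeper loss can be seen only for names with many reads in Col, and miR840 rests on 7 reads in dcl1-9 and 11 in Col.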

How the data were processed

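The authors mapped trimmed Illumina reads (mirVana small RNA) with Bowtie, with TAIR10 as the build in the submitters' processing notes, to hairpins of miRBase, and deposited raw counts per mature miRNA. How reads of identical sequences were assigned is not given in the sources used here. The deposited tables also hold RPM values on other totals, and the authors' fold changes and p-values, which were not used. Deposited totals were 14406060 reads in cdf2, 9443719 in dcl1-9 and 14073145 in Col, and miRNA counts summed to 5248526, 378685 and 8833288.

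Counts were scaled to the total reads the study states. Names were joined by identity or by a later name that a deposited table pairs with the same Col count (306 of 328). In counts of names and in medians, a fold against 0 reads uses a floor of 3 reads. A fold given as a bound is the 95% limit. Fisher's exact tests were two-sided over all miRNAs with at least 10 reads in the pair (adjusted p of 0.05 and 1.5-fold). Intervals are 95%, Clopper-Pearson for folds and ratios and exact Poisson for RPM. The test was also run on counts simulated with counting error only, which is what the test assumes. Variation between libraries was not simulated, so this run does not show how the test fares with it.

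Named were miRNAs with at least 100 reads in cdf2 or Col, with at least 4 in dcl1-9, past the test in cdf2, or with a listed target role. Others are named singly where a count or class needed them, after their values were seen. Members, lists and tests were chosen with earlier results of these data known. Alternatives were 5 other scales, filters of 1 read in both libraries or 100 in the pair, 1 added read, identical counts once, and an exact test in edgeR that assumes a coefficient of variation of 0.2 or 0.4. Sequences came from RefSeq's TAIR10.1 annotation. Software was Python 3.11.15, scipy 1.17.1, R 4.3.3, edgeR 4.0.16 and DESeq2 1.42.0. No mRNA was analysed here.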

Additional observations from a re-analysis of the deposited data

How the results depend on the processing

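No paired analysis was possible because each genotype has 1 library, and for the same reason no replicate could be left out. For cdf2 the 11 lower names became 4 with the sum of miRNA reads, 28 with the genome-matched reads, 7 by DESeq2 and 2 with at least 100 reads in the pair. The 6 higher names became 16, 0 and 10 with these 3 scales, and 2 with identical counts taken once. The median log2 fold change of -0.34 became 0.51 with the sum of miRNA reads, -1.15 with the genome-matched reads, 0.060 with the size factors of DESeq2 and 0.017 with at least 100 reads in the pair. The 4 lower names past Fisher's exact test became 2 with the sum of miRNA reads and 25 with the genome-matched reads, and the 5 higher became 15 and 0, and 8 with DESeq2's size factors. With edgeR's exact test at an assumed coefficient of variation of 0.2, 2 passed as lower and 0 as higher, and 4 and 0 at an unadjusted p under 0.05. At 0.4, 0 passed in either direction, and 1 (miR849) and 0 did at an unadjusted p under 0.05. For dcl1-9 the 31 lower names became 11 with each of the sum of miRNA reads, DESeq2 and TMM, 20 with at least 1 read in both libraries and 14 with at least 100 reads in the pair, where fewer names entered, and the 0 higher became 15 with these 3 scales, 5 of which had 0 reads in dcl1-9 and count only through the floor of 3 reads, while 5 others are miR854. The median of -4.71 became 0.020, 0.24 and 0.26 with the 3 scales, -3.95 with the deposited totals, -4.02 with at least 1 read in both libraries and -6.40 with at least 100 reads. The 30 past Fisher's exact test became 8, 7 and 7, and 2 passed as higher with each. The log2 fold changes in dcl1-9 that turned, in the order of these 3 scales, were 0.95, 1.18 and 1.19 for miR824, 0.84, 1.07 and 1.08 for miR831 and 0.71, 0.94 and 0.95 for each of miR854a to miR854e, and for miR823 0.10 by DESeq2 and 0.11 by TMM. miR840, not past the test on total reads (-0.84), had 3.89, 4.12 and 4.13. miR849, with 0 reads in dcl1-9, has only an upper limit under each. Counts with repeated reads taken once in the sums and abundance classes were added after seeing the data. A scale adds 1 shift to every log2 fold change of a library. Depth limits the 17 names under 10 reads in cdf2 and Col together, for which no fold is given.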
